A study of Mus musculus with 14 samples.

Results

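The imprinted growth genes H19, Igf2, Dlk1, Meg3, Peg3, Ndn, Grb10, Plagl1 and Mest were followed across 14 RNA-sequencing libraries of mouse bone marrow cells. They were chosen by name and are 9 of the 55487 genes counted. All 9 were found in the count tables, and between 1 and 6 of them had enough counts to be tested in any comparison. LSK (Lin-Sca1+c-kit+) cells, the fraction that holds the stem cells, and LK (Lin-c-kit+) cells, the myeloid progenitor fraction, were sorted from C57BL/6 mice. The mice were young adults at the start of the experiment. These mice had been lethally irradiated and transplanted with marrow carrying Mx1Cre; Jak2VF/+, a heterozygous Jak2V617F allele switched on by an interferon-inducible Cre. They then received PBS (3 libraries each of LSK and LK) or IL-1β (2 of each) at 0.5 μg per dose, 3 doses per week for 16 weeks. Mesenchymal stromal cells (MSC) were cultured for 21 days from wild-type C57BL/6 marrow and exposed to PBS (2 libraries, replicates 2 and 3) or to IL-1β at 5 ng/ml for 72 h (2 libraries, replicates 1 and 2). Every LSK and LK library therefore carried the same Jak2V617F allele, and every MSC library was wild-type. No LSK or LK library without Jak2V617F was analysed here. The labels do not say whether the libraries of a group came from separate animals or cultures, so p-values measure the spread between these libraries, which may be technical.

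An imprinted gene is transcribed mainly from the allele inherited from one parent. The choice follows DNA methylation laid down in the germ line at control regions and kept through later divisions. Many of these genes set fetal growth, with several growth-promoting genes expressed from the paternal allele and several restraining genes from the maternal one, and most are silenced in the majority of tissues after birth. In bone marrow, the H19-Igf2 and Dlk1-Meg3 loci are known for their activity in long-term hematopoietic stem cells. The mice were inbred, so the counts do not tell the parental alleles apart. In bulk RNA, fewer cells of a type and less RNA per cell cannot be told apart.

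On GRCm38, the members lie in 7 places. H19 (chr7:142575529-142578143, minus strand) and Igf2 (chr7:142650766-142666816, minus strand) are separated by 72.6 kb, and Dlk1 (chr12:109452823-109463336, plus strand) and Meg3 (chr12:109541001-109571726, plus strand) by 77.7 kb. The others are single members of their loci, namely Peg3 (chr7:6703892-6730431, minus strand), Ndn (chr7:62346569-62350262, plus strand), Grb10 (chr11:11930508-12038683, minus strand), Plagl1 (chr10:13060504-13131694, plus strand) and Mest (chr6:30723547-30748465, plus strand). Read pairs were counted by strand and only where they fell on 1 gene. For Igf2 this leaves 37.2% of its exon bases (2127 of 5723), because another annotated gene, Gm49394, shares the rest on the same strand, and that gene had 0 counts in all 14 libraries. For H19 and Meg3 the share was 96.6% and 98.5%, and for the other members it was 100%.

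Grb10, the member with the most counts in LSK and LK cells, has a pair of annotated start sites in RefSeq on GRCm38.p6. The bases directly before each of them are shown because a gene-level count adds up transcripts from both. CG dinucleotides, the sites at which mammalian DNA is methylated, are in capitals, and each sequence runs 5′ to 3′ on the minus strand.
Grb10 start 1, chr11:12037421-12037670: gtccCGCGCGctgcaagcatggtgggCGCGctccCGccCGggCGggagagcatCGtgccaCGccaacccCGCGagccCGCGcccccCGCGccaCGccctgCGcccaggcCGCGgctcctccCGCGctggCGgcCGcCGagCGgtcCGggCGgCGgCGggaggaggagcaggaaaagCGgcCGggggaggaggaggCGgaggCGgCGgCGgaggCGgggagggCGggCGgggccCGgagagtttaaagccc
Grb10 start 2, chr11:12027972-12028221: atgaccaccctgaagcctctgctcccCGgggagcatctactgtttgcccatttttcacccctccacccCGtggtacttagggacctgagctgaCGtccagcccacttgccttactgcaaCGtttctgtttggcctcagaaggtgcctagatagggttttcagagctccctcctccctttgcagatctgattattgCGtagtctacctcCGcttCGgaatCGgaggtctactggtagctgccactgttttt
The first stretch holds 40 CG dinucleotides and the second 8. Counted over windows of 300 bases, which also take in the first transcribed bases, start 1 held 45, more than 98.1% of the 32851 RefSeq promoter windows, and start 2 held 9, against a median of 7. The start used cannot be read from these counts, and methylation was not measured. Promoter windows were at hand for 8 of the 9 members, 15 windows in all, and H19 had none.

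The noncoding RNAs H19 and Meg3 are counted here as long transcripts, but parts of them are also the source of microRNAs. The mature sequences within their annotated exons are shown to mark what the long-RNA counts leave out, with the seed (bases 2 to 8) in capitals.
miR-675-5p in H19, chr7:142577112-142577133, minus strand: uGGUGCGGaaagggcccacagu
miR-675-3p in H19, chr7:142577078-142577099, minus strand: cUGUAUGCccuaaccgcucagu
miR-1906 in Meg3, chr12:109544588-109544609, plus strand: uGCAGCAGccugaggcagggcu
miR-770-5p in Meg3, chr12:109563710-109563731, plus strand: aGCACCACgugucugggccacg
miR-770-3p in Meg3, chr12:109563744-109563765, plus strand: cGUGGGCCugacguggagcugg
The 5 seeds differ from each other. In Meg3, miR-1906 lies in an exon of 5 of 11 GENCODE M21 transcripts and miR-770 in that of 1. In H19, miR-675 lies in an exon of 3 of 7. Small RNAs were not measured in these libraries, so a level of H19 or Meg3 below is that of the long RNA alone.

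The libraries held between 4393233 and 30871055 counted read pairs. In LSK and LK cells the IL-1β libraries were all less deep than those with PBS (4393233 to 8641124 against 12172400 to 18544346). Of the 5 LSK libraries, PBS replicate 2 stood apart, with 4085 and 4088 genes over 2-fold apart from replicates 1 and 3, which differed at 1513. The LSK IL-1β libraries differed from each other at 3114 genes and the LK IL-1β libraries at 1249, and LK PBS replicate 3 differed from replicates 1 and 2 at 1766 and 1824 genes, against 926 between those. The MSC PBS libraries differed at 2132 genes and the MSC IL-1β libraries at 550. Against their labels, the stem cell markers summed to 692.3 to 823.9 CPM (read pairs per 1e+06 of a TMM-scaled library size) in LSK and 238.2 to 263.9 in LK cells with PBS. The MSC cultures held 3106.3 to 6179.1 CPM of 15 mesenchymal markers with PBS and 6654.6 to 6687.7 with IL-1β, but also 24324.3 to 28477.3 and 51509.9 to 52706.2 CPM of 15 macrophage markers. Among the mesenchymal markers, Lepr was at 0 counts with PBS and at most 0.633 CPM with IL-1β, and among the macrophage markers, Cd163 was at most 0.394 CPM. The libraries labelled MSC therefore carried both kinds of marker, and the part of macrophage RNA in the MSC levels below was not tested. Xist, which is transcribed in female cells, was at 0 counts in MSC PBS replicate 3 and at 325, 2103 and 535 counts in MSC PBS replicate 2 and IL-1β replicates 1 and 2, while the Y-linked Ddx3y had 258 to 1992 counts in all 4. LSK and LK libraries had 563 to 19671 Xist and at most 2 Ddx3y counts. MSC PBS replicate 3 therefore differed in sex makeup from the other MSC libraries, and the part of this in the MSC values below was not tested.

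Grb10 encodes an adaptor that binds the insulin and insulin-like growth factor receptors and dampens their signal. With PBS it was at 18.1, 20.5 and 14.5 CPM in LSK replicates 1, 2 and 3, and at 53.0, 66.9 and 57.9 CPM in LK replicates 1, 2 and 3. The lowest LK library thus lay above the highest LSK library. The means were 17.7 ± 3.01 CPM in LSK (SD, n = 3) and 59.3 ± 7.08 in LK cells (SD, n = 3). Grb10 fell between LK and LSK cells on the log2 scale by 1.66 (standard error, SE, 0.20, edgeR's quasi-likelihood test, Benjamini-Hochberg adjusted p = 0.000729). It was the 1 member tested here and was called lower in LSK, where a call takes both an adjusted p below 0.05 and at least 0.5 of change on the log2 scale. Of all genes tested, 12.8% were called lower in LSK, and 51.6% had libraries that did not overlap. It was also called lower under all 15 alternative settings, with log2 fold changes from -1.77 to -1.59. Erythroid markers were lower in LSK too, at 643 to 654.2 CPM summed over 12 genes against 3709.3 to 4943.7 in LK, and their part in the Grb10 difference was not tested.

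With IL-1β, Grb10 was at 44.3 and 56.7 CPM in LSK replicates 1 and 2. Both libraries lay above the 3 LSK libraries with PBS, and replicate 2 lay within the range of the LK libraries with PBS. The mean with IL-1β was 50.5 ± 8.76 CPM (SD, n = 2), and the fitted difference was 2.85-fold (log2 fold change 1.51, SE 0.28). The adjusted p was 0.0526 by edgeR's quasi-likelihood test, so Grb10 was not called in the analysis as designed. Of all genes tested, 0.32% were called higher in LSK cells given IL-1β and 0.312% lower, and 39.5% had libraries that did not overlap between treatments. Grb10 passed the threshold under 5 of 14 alternatives, among them DESeq2's Wald test (adjusted p = 0.000419) and edgeR without LSK PBS replicate 2 (log2 fold change 1.64, edgeR adjusted p = 0.035). Leaving out the other libraries in turn gave adjusted p-values up to 0.407 by edgeR, with log2 fold changes from 1.34 to 1.68 over all 5 such fits.

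In LK cells, Grb10 was at 63.8 and 72.3 CPM with IL-1β. These values overlapped the LK libraries with PBS. The log2 fold change was 0.27 (SE 0.13, edgeR's quasi-likelihood test, adjusted p = 0.248), and Grb10 was not called under any of the 14 alternatives. Of all genes tested, 6.77% were called higher in LK cells given IL-1β and 2.57% lower, and 48.5% did not overlap. Within IL-1β, the LSK libraries stayed below the LK libraries, with a log2 fold change of -0.42 that was not called (SE 0.22, edgeR adjusted p = 0.249), where 4.14% of all genes were called lower, 4.18% higher (8.32% in all), and 59.6% did not overlap. Without LSK IL-1β replicate 2 it was called (log2 fold change -0.62, edgeR adjusted p = 0.001). The response of Grb10 to IL-1β exceeded that of LK cells by 1.20 on the log2 scale in LSK cells (SE 0.30), but this difference of responses was not called (edgeR interaction test over 10 libraries, adjusted p = 0.152). In that test 0.0289% of all genes were called (0.00723% higher and 0.0217% lower). It was called by DESeq2's Wald test (adjusted p = 0.0102), with no filter on low counts (edgeR adjusted p = 0.0218) and without LSK PBS replicate 2 (edgeR adjusted p = 0.0446).

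**Figure D1:**
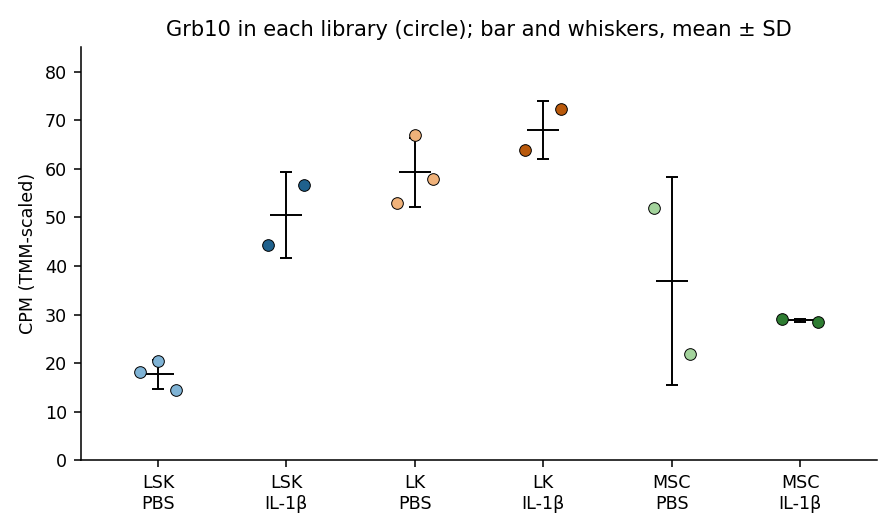
Grb10 in CPM (vertical axis, linear, TMM-scaled CPM) in each of the 14 libraries (circles), by population and treatment, with the mean and SD of each group as a bar with whiskers. The 3 LSK libraries with PBS sit between 14.5 and 20.5 CPM, below both LSK libraries with IL-1β and all LK libraries, and the MSC libraries with PBS lie apart at 52.0 and 21.8 CPM.

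Other markers moved in the same LSK libraries. The 12 neutrophil granule markers summed to 2016.4 to 2835.3 CPM with PBS and 9423.6 to 11060.4 with IL-1β, with 5 of the 11 tested called higher and none lower. The 15 stem cell markers summed to 692.3 to 823.9 CPM with PBS and 430.4 to 513.9 with IL-1β. Among them Hlf, a stem cell transcription factor, was called lower (log2 fold change -2.08, edgeR adjusted p = 0.0225). The part of cell composition and of the lower depth with IL-1β in the Grb10 values was not tested. The 12 cell cycle genes were called in neither direction in LSK cells, with a median log2 fold change of 0.21 against -0.06 for all genes. Over the 10 LSK and LK libraries, genes whose log2 CPM ran most like that of Grb10 included Mt1, a metallothionein (Pearson r = 0.98), and Lnpk, an endoplasmic reticulum protein (0.97). These 10 points share populations and treatments, so the r values are a description, taken from the 11027 genes compared.

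In MSC, Grb10 was at 52.0 CPM in PBS replicate 2 and 21.8 in PBS replicate 3, and at 29.0 and 28.5 CPM with IL-1β. Both IL-1β libraries fell between the PBS libraries. The log2 fold change was -0.36 (SE 0.43, edgeR's quasi-likelihood test, adjusted p = 0.624). Its direction turned on which PBS library was kept, being 0.38 without PBS replicate 2, too small a change for a call (edgeR adjusted p = 0.0386), and -0.91 without PBS replicate 3, where it was called (edgeR adjusted p = 7.19e-05). Against LSK cells with PBS, Grb10 was called higher in MSC (log2 fold change 1.01, SE 0.32, edgeR adjusted p = 0.0211), but without MSC PBS replicate 2 the log2 fold change was 0.28 and the call was lost (edgeR adjusted p = 0.452). Against LK cells it was -0.67 and not called (edgeR adjusted p = 0.102), whereas without MSC PBS replicate 2 it was -1.45 and called (edgeR adjusted p = 0.00406).

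**Figure D2:**
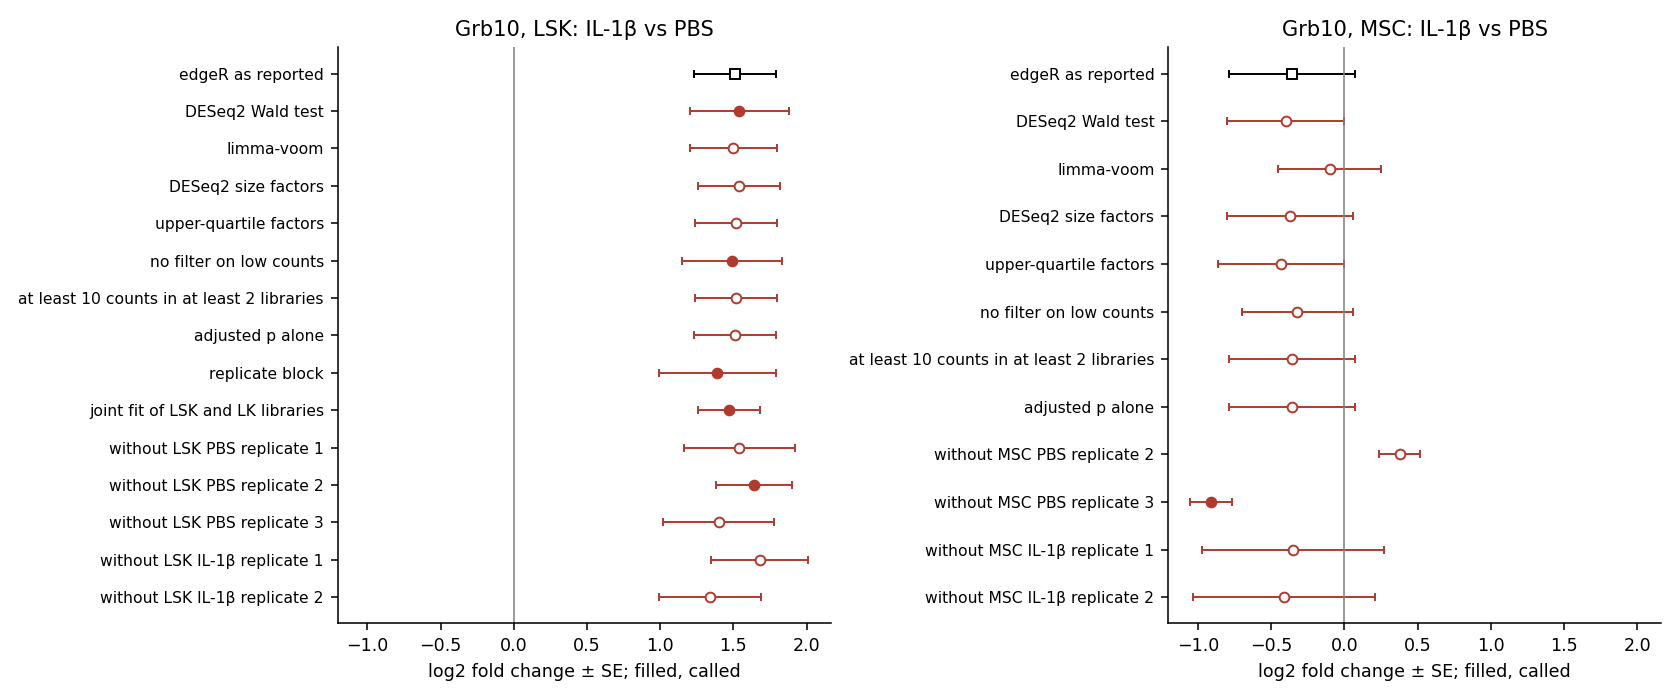
Log2 fold change of Grb10 between IL-1β and PBS (horizontal axis, point ± SE) in LSK cells on the left and MSC on the right, under the reported edgeR analysis (black square) and each alternative (red circles). Filled symbols were called. In LSK cells every value lies between 1.34 and 1.68, and in MSC the sign differs between the fits without PBS replicate 2 (0.38) and without PBS replicate 3 (-0.91).

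Dlk1 encodes a membrane protein related to the Notch ligands and is expressed from the paternal allele. In LSK cells it had 11, 1 and 19 counts with PBS and 0 and 5 with IL-1β, or 0.727, 0.0707 and 0.978 CPM against 0 and 1.11 CPM. The treatments overlapped, and the single LSK library with the highest level was IL-1β replicate 2. The log2 fold change was -0.28 (SE 1.70, edgeR's quasi-likelihood test, adjusted p = 0.946), and it was 0.87 without IL-1β replicate 1. Its difference of responses between LSK and LK cells was 2.84 (SE 3.42) and turned to -2.81 without LSK IL-1β replicate 2, a fit in which every IL-1β library was at 0. At these counts no change of Dlk1 in LSK cells was detectable. LK cells held 0, 1 and 3 Dlk1 counts with PBS and 0 in both IL-1β libraries, too few to be tested. Pooled over libraries with PBS, Dlk1 was 7.52 times as high in LSK as in LK cells (31 against 4 counts, 95% exact interval 2.66 to 29.3, which covers counting error only). With all libraries Dlk1 did not pass the filter on low counts in this comparison. Without LSK PBS replicate 2, which held 1 count, it passed only through the 2 LSK libraries where it is high and was called higher, so this call does not support a difference. Of all genes tested in that fit, 21% were called higher. The genes that ran most like Dlk1 over the 10 libraries were AW112010 (r = 0.95), Rnf2, a Polycomb ubiquitin ligase (0.92), and Tom1l2 (0.90). As Dlk1 had at most 19 counts in any of these libraries, the r values reflect few molecules.

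In MSC, Dlk1 was at 2.96 and 2.92 CPM with PBS (15 and 32 counts) and at 0.868 and 0.950 CPM with IL-1β (21 and 9 counts). Both IL-1β libraries lay below both PBS libraries, as for 59.6% of all genes tested whose treatments did not overlap in one direction or the other. The means were 2.94 ± 0.0263 and 0.909 ± 0.0583 CPM (SD, n = 2 each). Dlk1 had a log2 fold change of -1.73 (SE 0.44) and was not called (edgeR's quasi-likelihood test, adjusted p = 0.0564), where 4.31% of all genes were called lower. It was called with limma-voom (adjusted p = 0.0348), with upper-quartile factors (edgeR adjusted p = 0.0494) and without either PBS replicate (edgeR adjusted p = 0.00996 and 0.0369). The direction held in all 11 alternatives, with log2 fold changes from -1.83 to -1.61. In the reported fit, however, Dlk1 passed the filter on low counts only through the PBS libraries, where it is high. The calls under alternatives therefore do not support a difference.

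Meg3, the maternally expressed noncoding RNA downstream of Dlk1, had 0 counts in all 5 LSK libraries and in 4 of the 5 LK libraries, with 1 count in LK IL-1β replicate 2. A count of 0 allows up to 3 counts, which is 0.154 to 0.665 CPM in the LSK libraries. In MSC it was at 8.48 and 26.3 CPM with PBS (43 and 288 counts) and at 17.1 and 11.5 with IL-1β (415 and 109 counts). The IL-1β libraries lay between the PBS libraries, and the log2 fold change of -0.35 was not called (SE 0.52, edgeR's quasi-likelihood test, adjusted p = 0.70). It was -0.84 and called without PBS replicate 2 and 0.75 and not called without PBS replicate 3 (edgeR adjusted p = 0.000773 and 0.0515). Measured against 3 counts per library, the mean of Meg3 was at least 92.3-fold higher in MSC than in LSK cells with PBS and at least 88.2-fold higher than in LK cells. From MSC PBS replicate 2 alone these limits were 45-fold and 43-fold, and from replicate 3 alone 139.6-fold and 133.3-fold.

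H19, the maternally expressed noncoding RNA that shares enhancers with Igf2, had 1 count in LSK PBS replicate 3, 1 in LK PBS replicate 2 and 0 in the other 8 LSK and LK libraries. In MSC it was at 3.35 and 3.01 CPM with PBS (17 and 33 counts) and at 1.78 and 1.37 CPM with IL-1β (43 and 13 counts). Both IL-1β libraries lay below both PBS libraries, where 59.6% of all genes tested did not overlap between the treatments. The means were 3.18 ± 0.241 and 1.57 ± 0.286 CPM (SD, n = 2 each), with a log2 fold change of -1.02 that was not called (SE 0.40, edgeR's quasi-likelihood test, adjusted p = 0.156) in the reported fit or in any of the 11 alternatives. Pooled counts of H19 were 151.9 times as high in MSC as in LSK cells with PBS (50 against 1 count, 95% exact interval 26 to 6117.9) and 147.4 times as high as in LK cells (interval 25.3 to 5935.7). Igf2, the fetal growth factor itself, had 2 counts in MSC IL-1β replicate 1 and 0 in the other 13 libraries. Over the exon bases that only Igf2 covers, it was therefore not detectable at this depth in LSK, LK or PBS-treated MSC.

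Ndn encodes necdin, a growth-restraining protein of the MAGE family. LSK cells held 9, 0 and 11 Ndn counts with PBS and 0 in both IL-1β libraries, and LK cells held 1, 0 and 0 with PBS and 0 in both IL-1β libraries. The PBS and IL-1β libraries of LSK cells overlapped at 0, since PBS replicate 2 had no Ndn count. Pooled over LSK libraries, 20 counts with PBS against 0 with IL-1β allow at most 0.723 times the PBS level with IL-1β (95% exact interval, counting error only), which leaves out the spread between the PBS libraries. In MSC, Ndn was at 23.3 and 15.1 CPM with PBS (118 and 165 counts) and at 13.3 and 15.9 CPM with IL-1β (323 and 151 counts), and the treatments overlapped. The log2 fold change was -0.41, not called (SE 0.27, edgeR's quasi-likelihood test, adjusted p = 0.355), and ran from -0.75 without PBS replicate 3, where it was called, to -0.08 without PBS replicate 2. Pooled counts of Ndn in MSC with PBS were 43.0 times those of LSK (283 against 20 counts, 95% exact interval 27.3 to 71.5) and 834.1 times those of LK cells (283 against 1 count, interval 148.5 to 33060.7).

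The 3 remaining members were at the edge of detection in LSK and LK cells. Peg3, a paternally expressed zinc-finger gene, had 3 counts in LSK PBS replicate 3 and 0 in the other 9 LSK and LK libraries. Plagl1, a zinc-finger transcription factor that acts on other imprinted genes, had 0 to 3 counts in each LSK and LK library. Mest, a paternally expressed gene of the hydrolase fold family, had 0 to 4. In MSC, Peg3 was at 2.37 and 0.456 CPM with PBS and at 1.45 and 1.37 with IL-1β, and the log2 fold change of 0.16 was not called and turned to -0.79 without PBS replicate 3. Plagl1 was at 2.56 and 0.821 CPM with PBS and at 0.826 and 0.422 with IL-1β, and Mest at 1.18 and 0.456 against 0.413 and 0.633. For each of these 3 genes the MSC treatments overlapped. Plagl1 and Mest were too low to be tested there with all libraries. Without PBS replicate 3, Plagl1 passed the filter on low counts only through PBS replicate 2, where it is high. Its call as lower with IL-1β in that fit therefore does not support a difference. Relative to LSK cells with PBS, pooled counts in MSC were 17.2 times as high for Peg3 (95% exact interval 4.98 to 91.7), 16.7 times for Plagl1 (5.67 to 66.7) and 11.1 times for Mest (2.94 to 62.2).

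**Figure D3:**
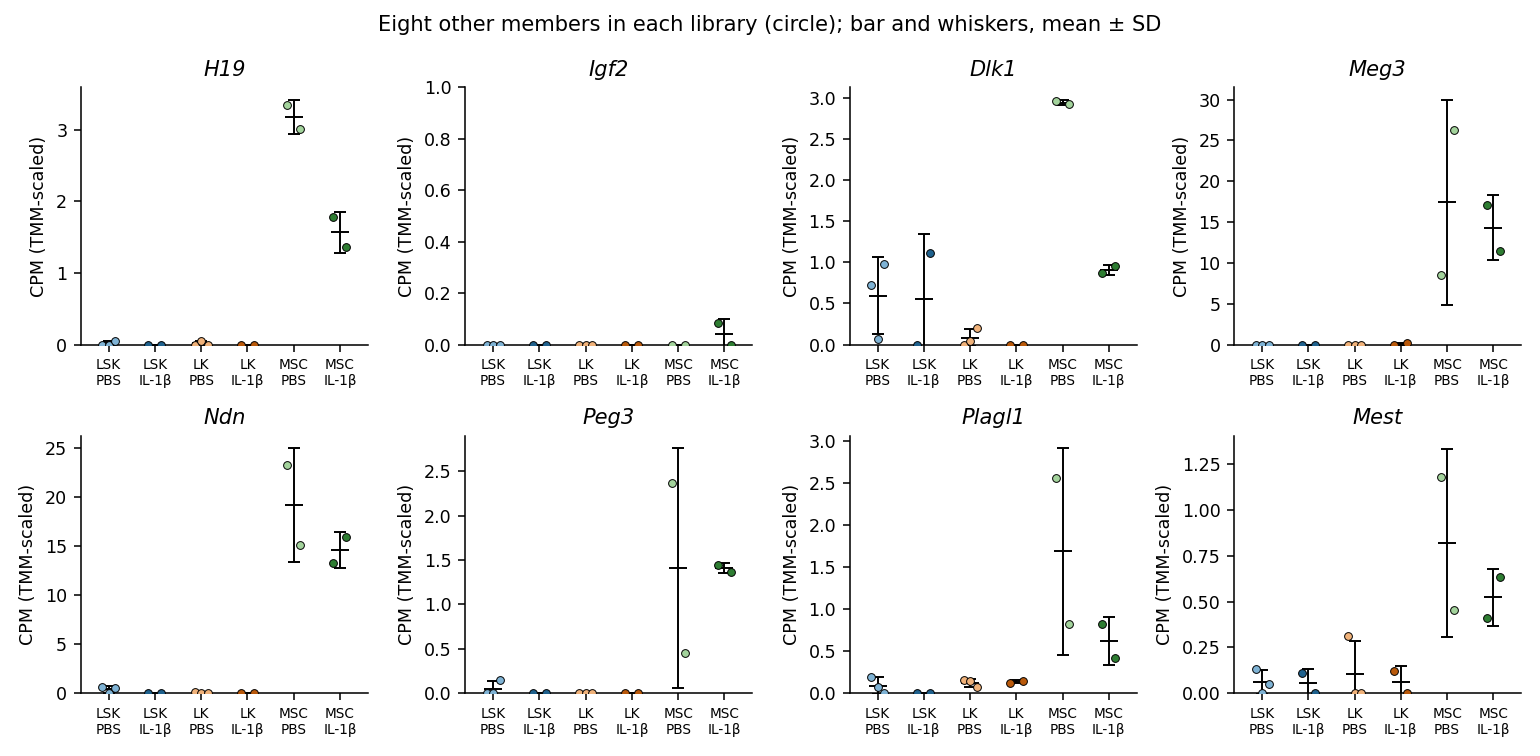
The other members in CPM (vertical axes, linear, TMM-scaled, each with its own range) in each of the 14 libraries (circles), by population and treatment, with the mean and SD of each group as a bar with whiskers. H19, Meg3, Ndn, Peg3, Plagl1 and Mest are higher in the MSC libraries with PBS than in any LSK or LK library, Dlk1 in MSC is lower with IL-1β (0.868 and 0.950 CPM) than with PBS (2.96 and 2.92), and Igf2 shows 2 counts in 1 library.

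Across the 8 comparisons, counts of members called were small. None of the 2 tested in LSK, the 1 in LK and the 6 in MSC was called between IL-1β and PBS, where 0.632%, 9.34% and 11.4% of all genes tested were called in either direction. At an unadjusted p under 0.05, edgeR gave 1 member in LSK, none in LK and 2 in MSC, where 18.5%, 24.7% and 30% of all genes tested passed. By DESeq2 the counts of called members were 1, 0 and 0, where 7.32%, 12% and 13% of the genes with an adjusted p were called. Between MSC and LSK cells with PBS, 4 of the 5 members tested were called higher in MSC (H19, Meg3, Ndn and Grb10) against 28.5% of all genes (27.7% lower, 56.1% in all), and between MSC and LK cells 4 of 5 (H19, Dlk1, Meg3 and Ndn) against 30.7% (28.5% lower, 59.2% in all). The libraries did not overlap at 70.2% and 79.5% of all genes in these comparisons. H19, Meg3 and Ndn passed the filter on low counts through the MSC libraries, where they are high, so these counts do not support a difference of the members as a group. MSC differed from LSK and LK cells in genotype, sex makeup, culture and preparation as well as cell type, and these cannot be told apart. Per kilobase of exon (FPKM computed from the counts), MSC with PBS held Ndn at 5.19 ± 1.57, Grb10 at 4.06 ± 2.35, H19 at 1.29 ± 0.0978, Meg3 at 0.961 ± 0.696, Dlk1 at 0.519 ± 0.00465, Plagl1 at 0.216 ± 0.157, Mest at 0.208 ± 0.130 and Peg3 at 0.104 ± 0.0992 (SD, n = 2 each). In that order Ndn and Grb10, H19 and Meg3, Meg3 and Dlk1, and the last 3 do not differ beyond their spread. In LSK cells with PBS the order was Grb10 at 1.95 ± 0.331 FPKM, then Dlk1 and Ndn at 0.105 ± 0.0828 and 0.105 ± 0.0908, and the other members at or under 0.0155 (SD, n = 3 each).

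**Figure D4:**
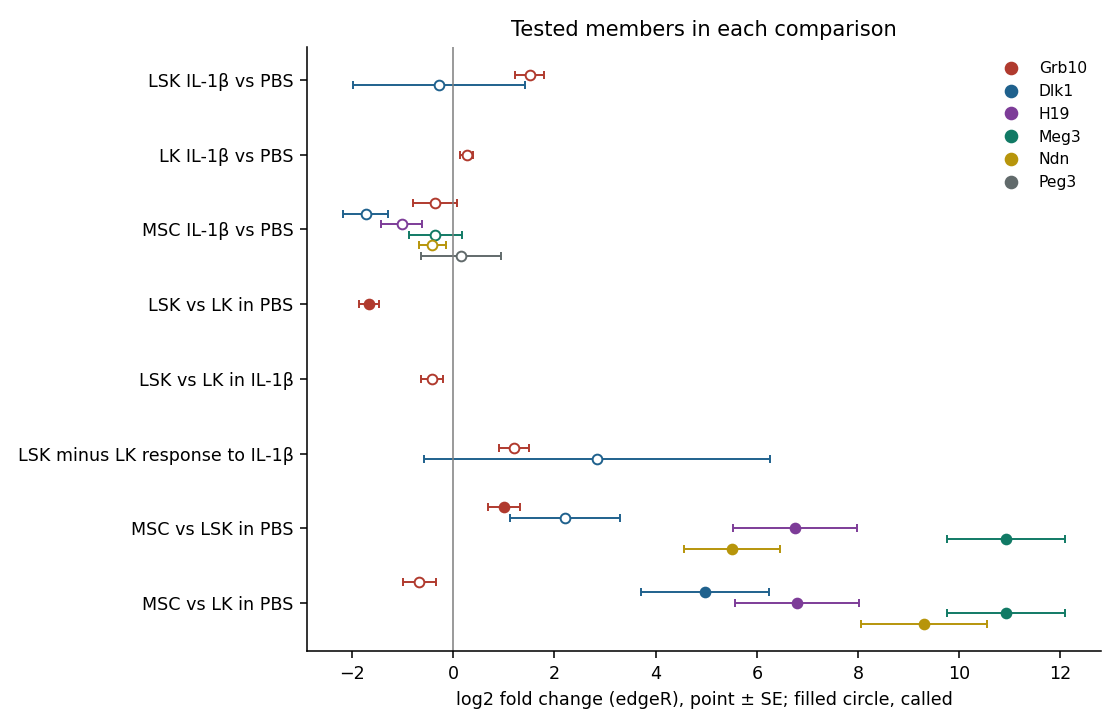
Log2 fold change (horizontal axis, point ± SE, edgeR) of each tested member in the 8 comparisons, with filled circles for called genes. Grb10 is called lower in LSK than in LK cells with PBS (-1.66) and higher in MSC than in LSK cells (1.01), no member is called between IL-1β and PBS, and the fitted values of Meg3 depend on the prior count because its LSK and LK libraries with PBS are at 0.

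The members' neighbours within the same imprinted loci were read from a list of 65 other imprinted genes, and those named by position in the next sentences were picked after their values were seen. Rian, a noncoding RNA on the same strand as Meg3 and downstream of it, was at 13 to 16.3 CPM in MSC with PBS and at 9.40 to 9.92 with IL-1β, and at most 0.443 CPM in any LSK or LK library. It thus followed Meg3 in where it was found. Copg2, which overlaps the end of Mest on the other strand, was at 88.5 to 141.9 CPM in LSK cells with PBS, while Mest was at most 0.132 CPM there. Near Ndn, Peg12 was at 3.46 to 8.28 CPM and Mkrn3 at 1.26 to 4.81 CPM in LSK cells with PBS, where Ndn was at most 0.595. Snrpn was at 0 in all LSK and LK libraries. Snurf lies within Snrpn on the same strand, and the exon bases that counting on 1 gene leaves to Snrpn were not measured. Cobl, next to Grb10, was at 0 CPM in every LSK and LK library.

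**Figure D5:**
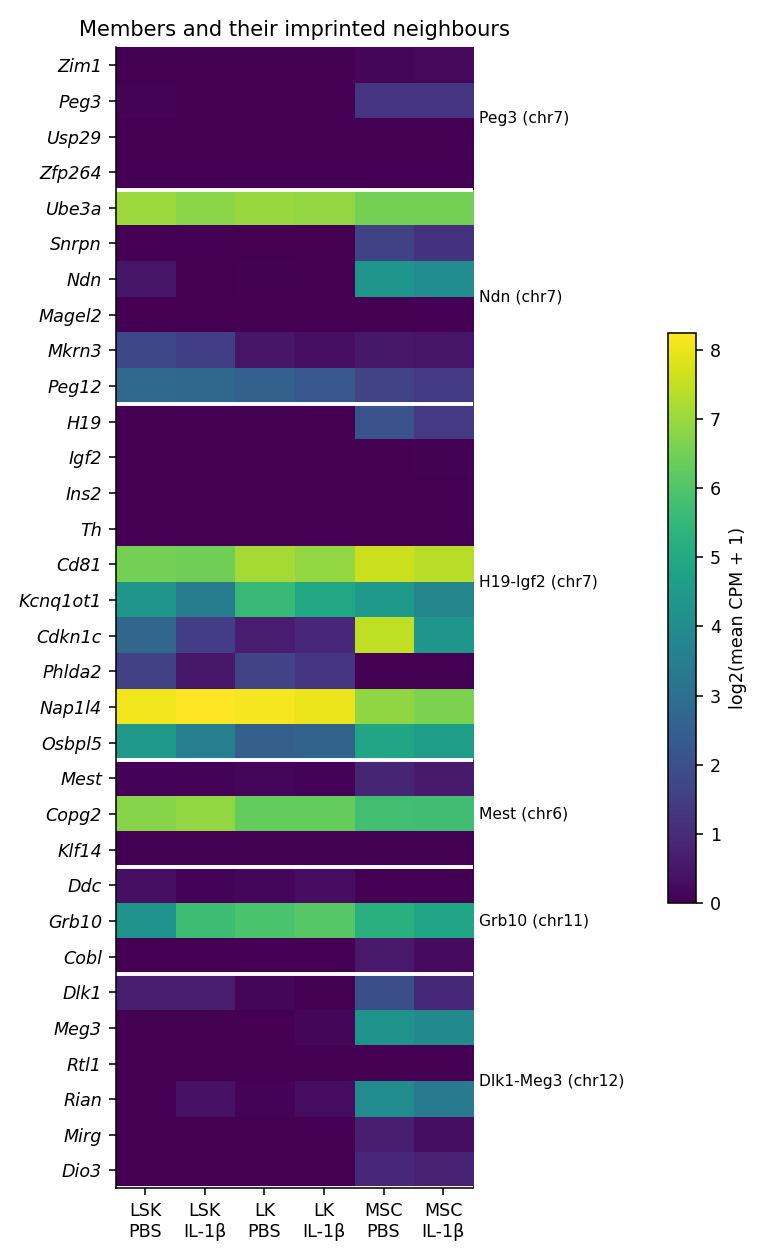
Mean level of the members and of other imprinted genes near them, as log2(mean CPM + 1) by color, in the 6 groups (columns), ordered by locus (rows). Meg3 and Rian are both near 0 in LSK and LK cells and present in MSC, whereas Copg2 is present in all groups and Mest is near 0 in LSK and LK cells.

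Among the 65 other imprinted genes, 35 were tested in LSK cells with IL-1β, with 1 called higher and none lower. The shares over all genes were 0.32% and 0.312%, and the median log2 fold change was -0.34 against -0.06 for all genes. The gene called was Gatm, which makes the creatine precursor guanidinoacetate, at 33.3 to 55.5 CPM with PBS and 139.1 to 139.8 with IL-1β (log2 fold change 1.57, edgeR adjusted p = 0.0407). Gatm was also called higher with IL-1β in LK cells (log2 fold change 0.83) and lower in LSK than in LK cells with PBS (-1.52), and it has the same signs there as Grb10. In LK cells 34 were tested, with Gatm called higher and Ampd3, an AMP deaminase, called lower (log2 fold change -0.87). There 6.77% of all genes were called higher and 2.57% lower, and the median was -0.01 against -0.03. Between LSK and LK cells with PBS, 9 of 34 were called higher in LSK and 5 lower, with a median of 0.41 against 0.04 for all genes and 18.4% and 12.8% of all genes called. The higher genes were Cdkn1c, a maternally expressed cell cycle inhibitor (log2 fold change 3.46), Sgce (2.86), Peg13 (2.82), Ppp1r9a (2.80), Mkrn3 (2.59), Osbpl5 (2.22), Atp10a (1.79), Slc22a3 (1.61) and Herc3 (1.16). The lower ones were led by Ampd3 (-2.69), Igf2r, the receptor that clears Igf2 (-1.82), Gatm (-1.52) and Pon2 (-0.87). With IL-1β, 2 of 30 were called higher in LSK than in LK cells (Slc22a3 at 1.38 and Tssc4 at 0.98) and 4 lower (Ampd3 at -3.46, Igf2r at -2.86, Kcnq1ot1 at -1.52 and Gatm at -0.78). Over all genes these shares were 4.18% and 4.14%. In the difference of responses, none of 36 was called.

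In MSC, 39 of the other imprinted genes were tested between IL-1β and PBS, with 4 called higher and 1 lower, against 7.14% and 4.31% of all genes, and a median of -0.25 against 0.00. The gene called lower was Cdkn1c, at 117.3 to 233.2 CPM with PBS and 18.5 to 19.7 with IL-1β. Dcn, a collagen-binding proteoglycan (log2 fold change 1.60), Atp10a (1.54), Ampd3 (1.12) and Pon3 (0.78) were called higher. The 12 cell cycle genes moved in the same libraries, with 6 called lower and none higher. Compared with LSK cells with PBS, 16 of 40 other imprinted genes were called higher in MSC and 9 lower (median 0.52 against -0.04), and compared with LK cells 17 and 7 (median 0.61 against -0.05). Over all genes, 28.5% were called higher and 27.7% lower against LSK, and 30.7% and 28.5% against LK cells. Cdkn1c was among the higher genes in both (log2 fold changes 4.92 and 8.36), and Slc22a3, an organic cation transporter, among the lower ones, at 0 to 0.182 CPM in MSC against 165.8 to 217.9 in LSK and 57.9 to 80.5 in LK cells.

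The factors that keep imprints in place, such as DNA methyltransferases and the KRAB zinc-finger machinery, formed a list of 24 genes. In LSK cells with IL-1β none of 21 tested was called (median -0.32 against -0.06 for all genes). In LK cells 1 of 21 was called higher (median -0.02 against -0.03), where 6.77% of all genes were. This was the methyltransferase cofactor Dnmt3l, which had 3 counts in all with PBS and 26 with IL-1β. It passed the filter on low counts only through the IL-1β libraries, where it is high, so its call does not support a difference. Between LSK and LK cells with PBS, 5 of 21 were called higher in LSK and 1 lower, against 18.4% and 12.8% of all genes. The higher ones were led by Zfp57, a KRAB zinc-finger protein that keeps imprints (log2 fold change 2.58), and Tet1, which oxidizes methylated cytosine (2.02). Zfp57 had 5 to 11 counts per LK library and passed the filter only through the LSK libraries, where it is high. Its call does not support a difference. The de novo methyltransferases Dnmt3a (1.52) and Dnmt3b (1.17) followed, and the lower one was the histone methyltransferase Setdb1 (-0.59). With IL-1β none of 21 was called between LSK and LK cells. In MSC with IL-1β, 1 of 22 was called, Dnmt3a, lower at 151.9 to 157.8 CPM against 343.4 to 396.9 with PBS (log2 fold change -1.29). In that comparison 4.31% of all genes were called lower. MSC had 13 of 22 called lower than in LSK cells and 2 higher (median -1.13 against -0.04), against 27.7% and 28.5% of all genes. Dnmt3a was higher (1.31), and Dnmt3b (-5.11), Hells (-3.80) and Uhrf1 (-3.52) were lower. Tet1 was at 0 to 0.365 CPM in MSC against 38.9 to 52.9 in LSK cells. Hells, a remodelling ATPase, and Uhrf1, which guides the maintenance methyltransferase, are replication-linked. In the same comparison 11 of 12 cell cycle genes were called lower in MSC, and their part in the Hells and Uhrf1 values was not tested.

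The ligands, receptors and binding proteins of the insulin-like growth factor pathway, on which Igf2, Igf2r and Grb10 act, formed a list of 17 genes. Of these, none of 7 tested was called in LSK cells with IL-1β (median -0.65 against -0.06), and 1 of 9 in LK cells, Igf1r, the main receptor, higher with a log2 fold change of 0.64. Among all genes, 6.77% were called higher in LK cells with IL-1β. Between LSK and LK cells with PBS, the receptors Insr (log2 fold change 0.99) and Igf1r (0.57) and the binding protein Igfbp4 (1.25) were called higher in LSK, and Igf2r (-1.82) and the receptor substrate Irs2 (-1.76) lower, out of 8 tested. Over all genes, 18.4% were called higher in LSK and 12.8% lower, and Igf2r is also among the other imprinted genes above. Grb10, the adaptor of these receptors, was lower in LSK in the same comparison. With IL-1β, Igfbp4 (1.30) was called higher in LSK than in LK cells and Igf2r (-2.86) and Irs2 (-2.05) lower, out of 6 tested. The shares over all genes were 4.18% higher and 4.14% lower. In MSC, Igf1, the other ligand of the receptor that Igf2 uses, was at 657 to 912.7 CPM with PBS and 591.9 to 678.7 with IL-1β and was not called, while Igf2 was at 0 to 2 counts. Of 15 tested in MSC with IL-1β, Igfbp3 was called higher (log2 fold change 2.03) and Igfbp6 lower (-1.14), against 7.14% and 4.31% of all genes. Between MSC and LSK cells, 11 of 15 were called higher in MSC and 3 lower (median 6.74 against -0.04), against 28.5% and 27.7% of all genes. Igf1 led (log2 fold change 11.53), and Igf1r (-1.64), Insr (-0.95) and Igfbp4 (-0.94) were lower. Against LK cells the counts were 11 higher and 2 lower, the latter being Irs2 (-1.43) and Igf1r (-1.10). The shares over all genes there were 30.7% and 28.5%.

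Notch receptors, ligands and targets, the pathway to which Dlk1 is related, formed a list of 14 genes. None of 7 tested in LSK (median -0.66 against -0.06) and none of 6 in LK cells (median -0.10 against -0.03) was called with IL-1β. Between LSK and LK cells with PBS, 3 of 7 were called higher in LSK, namely the ligand Jag2 (log2 fold change 2.52) and the receptors Notch1 (1.68) and Notch2 (0.58), and none lower. The shares over all genes were 18.4% higher and 12.8% lower. With IL-1β, Jag2 alone of 5 tested was called (2.54), where 4.18% of all genes were called higher. In MSC, Notch1 (log2 fold change 1.08), Notch2 (0.86) and Jag1 (0.80) were called higher with IL-1β and the target Hes1 (-1.58) lower, out of 8 tested. There 7.14% of all genes were called higher and 4.31% lower. Compared with LSK cells, 4 of 9 were called higher in MSC and 4 lower (Jag2 with a log2 fold change of -3.06, Notch1 with -1.58, Notch2 with -1.39 and Nrarp, at 0 to 0.197 CPM against 3.46 to 9 in LSK cells), and compared with LK cells 4 higher and 2 lower. Over all genes, 28.5% were called higher and 27.7% lower against LSK, and 30.7% and 28.5% against LK cells.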

How the data were processed

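RNA was sequenced from 5 LSK, 5 LK and 4 MSC samples after ribosomal RNA depletion. The values the authors deposited are raw counts of read pairs per gene, without normalization. Per the submitters' processing notes and the file headers, reads were trimmed with fastp 0.20.0, aligned to GRCm38 with HISAT2 2.0.1, handled with SAMtools 1.10 and counted with featureCounts 2.0.2 on Ensembl genes in reverse-stranded mode. The methods name GenomicAlignments for the counting step. The header of the MSC table names a further IL-1β library, not analysed here. Symbols for 55141 of 55487 gene identifiers came from GENCODE M21 on GRCm38, and sequences from RefSeq.

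Groups came from the sample labels. Tests used edgeR 4.0.16 in R 4.3.3 (robust quasi-likelihood fit and two-sided test after filterByExpr and TMM scaling) with Benjamini-Hochberg adjustment over all genes tested, using the libraries of each comparison, the 10 LSK and LK libraries for the difference of responses, and the 8 PBS libraries for MSC. A gene was called if its adjusted p was below 0.05 and its change exceeded 0.5 on the log2 scale. SE is the size of the log2 fold change divided by the square root of F. CPM and FPKM used TMM factors over the 14 libraries. A count of 0 was taken to allow 3 counts per library, and intervals are 95% exact (Clopper-Pearson, conditional on the summed counts). Both cover counting error only, since duplicated molecules from PCR are counted again. Libraries held 4393233 to 30871055 counts. The tests were also run on simulated counts in which only genes with higher counts were changed, so that run does not bear on members at a few counts. Alternatives were DESeq2 1.42.0, limma-voom (limma 3.58.1), other normalizations and filters, no fold threshold, a joint fit, the replicate number as a block, and each library left out in turn.

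Same-numbered LSK and LK libraries with PBS deviated together from their group means (r = 0.19, 0.12 and 0.45 for replicates 1, 2 and 3). However, LSK replicate 2 correlated best with LK replicate 1 and not with its own number. No label says that a number marks a mouse. The reported fits therefore did not pair LSK and LK libraries, and the number served as a block only in an alternative. For IL-1β the r values were 0.08 and 0.08, which is 1 value given for each number, since 2 libraries deviate equally and oppositely from their mean. Replicates of a group differed by more than sampling noise in every group.

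The members were given by name, and all members are reported in each comparison. From the other lists, called genes are named, at most 4 per direction by size of log2 fold change among genes with a mean of at least 1 log2 CPM, and the 3 genes with the highest Pearson r for each member tested in LSK and LK cells. Some genes that this rule names are not reported here. Locus neighbours, Dnmt3l, Zfp57, and Cdkn1c, Sgce, Mkrn3, Slc22a3 and Herc3 between LSK and LK cells were named after their values were seen. The members and lists were chosen with earlier results of these data known. Figures were drawn with matplotlib 3.10.9.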

Additional observations from a re-analysis of the deposited data

How the results depend on the processing

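Of 321 log2 fold changes of single members recomputed under an alternative, 291 kept their direction and their side of the threshold, 20 passed it only under the alternative, 3 passed it only in the reported fit and 7 changed sign. The changes of sign were those of Dlk1 in LSK cells with IL-1β (0.08 with a replicate block, and from -6.14 to 0.87 with a library left out), of Dlk1 in the difference of responses (-0.94 with limma-voom, and from -2.81 to 4.13), and, in MSC with IL-1β, of Meg3 (-0.84 to 0.75), Peg3 (-0.79 to 1.60) and Grb10 (-0.91 to 0.38), each between the fits without PBS replicate 2 and without PBS replicate 3. The 3 losses were all of Grb10 between MSC and LSK cells (0.75 with limma-voom, 0.90 without LSK PBS replicate 3 and 0.28 without MSC PBS replicate 2). Their cause was not tested. Fits that leave 1 library in a group assume that it varies like the other groups.

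The number of members called between IL-1β and PBS in LSK cells was 0, and 1 (Grb10) with DESeq2's Wald test, with no filter on low counts, with the joint fit and with a replicate block, and 0 to 1 with a library left out. Across treatments the LSK samples share only a number (r of 0.12 and -0.03), and under that block Grb10 had a log2 fold change of 1.39. The block changed no other member call, pairs of LSK and LK libraries included. In MSC the number was 0, and 1 (Dlk1) with limma-voom and with upper-quartile factors, and 0 to 4 with a library left out (Dlk1 and Meg3 without PBS replicate 2, and Dlk1, Ndn, Grb10 and Plagl1 without PBS replicate 3). The MSC treatments share only number 2, so no block could be used there. Plagl1 without PBS replicate 3, and Dlk1 with limma-voom and upper-quartile factors, passed the filter on low counts only through PBS libraries, where each is high. Those calls do not support a difference. In LK cells it was 0 under every alternative. Between LSK and LK cells it was 1 with PBS (1 to 2 with a library left out) and 0 with IL-1β (0 to 1). For the difference of responses it was 0, and 1 with DESeq2's Wald test and with no filter, and 0 to 1 with a library left out. Between MSC and LSK cells it was 4 (3 to 5 with a library left out, 6 with no filter), and between MSC and LK cells 4 (4 to 5, and 7 with no filter). With no filter, genes at a few counts enter the test.

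The counts over all genes, against which the members are read, moved more. In LSK cells 83 genes were called with IL-1β, from 21 (limma-voom) to 1228 (joint fit), and from 3 (without IL-1β replicate 2) to 480 (without PBS replicate 2) with a library left out. In LK cells 1199 were called, from 489 (joint fit) to 2331 (replicate block), and from 66 (without IL-1β replicate 1) to 2409 (without PBS replicate 3). In MSC 1515 were called, up to 2354 with no filter, and from 38 (without IL-1β replicate 1) to 3819 (without PBS replicate 2). Between LSK and LK cells 3980 were called with PBS (2145 to 4965 with a library left out) and 977 with IL-1β, from 609 (joint fit) to 2164 (no filter), and from 358 to 4170. For the difference of responses 4 were called, from 1 (limma-voom) to 398 (no filter), and from 0 to 336. Depth limits the statements on Igf2, Dlk1, Peg3, Plagl1 and Mest in all populations, and on H19, Meg3 and Ndn outside MSC. These rest on at most 35 counts per library. In MSC, H19 rests on 13 to 43 counts per library.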
